A study of Sus scrofa with 12 samples.

Results

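The collagen genes of the pig were examined in 2 maps of the nucleus of skeletal muscle, one of contacts between DNA segments at active regulatory elements and one of RNAs held on chromatin. A gene was taken as a collagen gene when its symbol in the RefSeq table of the assembly Sscrofa11.1 was COL, a number, A and a number. The table held 43 such genes, of which 42 were placed on a chromosome and were analysed, among 28210 placed genes and 19550 protein-coding ones. COL6A2 lies on an unplaced scaffold and COL6A1 has no position in the table, so these chains of type VI collagen were not analysed here. By class the 42 genes were 11 fibrillar collagens, 10 FACITs, 9 network-forming collagens, 4 transmembrane collagens, 3 beaded filament chains, 2 multiplexins, 1 anchoring fibril collagen and 2 others. The tissue was longissimus muscle of 2-week-old male piglets of the lean European Large White breed (LW) and the Chinese Meishan breed (MS), for which the labels name no treatment or engineered allele. BL-HiChIP (bridge linker HiChIP) against H3K27ac gave 2 libraries per breed, and GRID-seq gave 2 libraries per breed. The labels and methods leave unclear if the 2 replicates come from separate piglets, so the p-values may measure technical spread. Whole muscle holds myofibres, fibroblasts, endothelial and other cells, and in such samples fewer cells of a type and less signal per cell cannot be told apart.

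Collagens are the main structural proteins of the extracellular matrix, built from chains that wind into a triple helix. Fibrillar collagens form the cross-linked fibrils of the endomysium, perimysium and tendon, FACITs (fibril-associated collagens with interrupted triple helices) coat those fibrils, and type IV chains assemble into the sheet of the basement membrane around each myofibre and capillary. In muscle, fibroblasts are the main makers of the fibrillar chains and of type VI collagen, which forms beaded filaments next to the basement membrane. H3K27ac marks active promoters and enhancers, and a loop at such a site joins it to another segment that lies near it in the nucleus.

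The loop lists held 57028 loops for LW replicate 1, 43282 for LW replicate 2, 45061 for MS replicate 1 and 33353 for MS replicate 2. Pairs of values are in the order of replicates 1 and 2. The GRID-seq lists held 571 and 681 RNAs with 8181721 and 9943666 reads in LW, and 519 and 649 RNAs with 7172517 and 9381797 reads in MS. The list of MS replicate 1 lacked 52 of the 359 named RNAs that the other 3 libraries listed, against 36 for LW replicate 1, 8 for LW replicate 2 and 3 for MS replicate 2. The labelled tissue matched its markers: the RNAs of 6 of 12 myofibre markers, TTN, NEB, CKM, MYH7, TNNC2 and TNNT3, were listed in every library.

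The highest summed loop scores of the collagen genes were at the fibrillar chains of type I, at COL15A1 and at the shared start of COL4A1 and COL4A2. A loop was assigned to a gene when one of its 5-kb anchors lay within 1 kb of an end of the gene, and the loop score is the sum over such loops of −log10 of the false discovery rate in the deposited list. In all, 25 of the 42 collagen genes (59.5%) had a loop in at least 1 library, against 62.6% of the protein-coding genes, and 10 (23.8%) had some loop in each of the 4, against 31.7%. The number of collagen genes with a loop was 24 and 16 in LW against 20 and 13 in MS, so that replicate 1 gave the higher count in both breeds. The collagen genes are long, with a median of 139.6 kb against 20.7 kb for protein-coding genes, but only their ends were searched for anchors. A loop that is not in a list was not called at that depth, which does not show that the contact is absent.

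By class, 9 of 11 fibrillar collagens had a loop in some library, as did both multiplexins, 3 of 4 transmembrane collagens, 2 of 3 beaded filament chains, 5 of 10 FACITs and 3 of 9 network-forming collagens. Some loop in each of the 4 libraries, though not always the same one, was found for 5 fibrillar genes, 2 network genes, and 1 gene each of the multiplexins, beaded filament chains and FACITs. COL4A3, COL4A4, COL4A5 and COL4A6, the chains of type IV collagen used in specialised basement membranes, had no loop in any library. The other genes with no loop at an end in any library were COL2A1, COL6A5, COL8A2, COL9A1, COL9A2, COL10A1, COL12A1, COL19A1, COL22A1, COL24A1, COL25A1, COL26A1 and COL28A1. COL12A1, a FACIT of tendon and muscle connective tissue, thus had no loop at its ends.

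**Figure D1:**
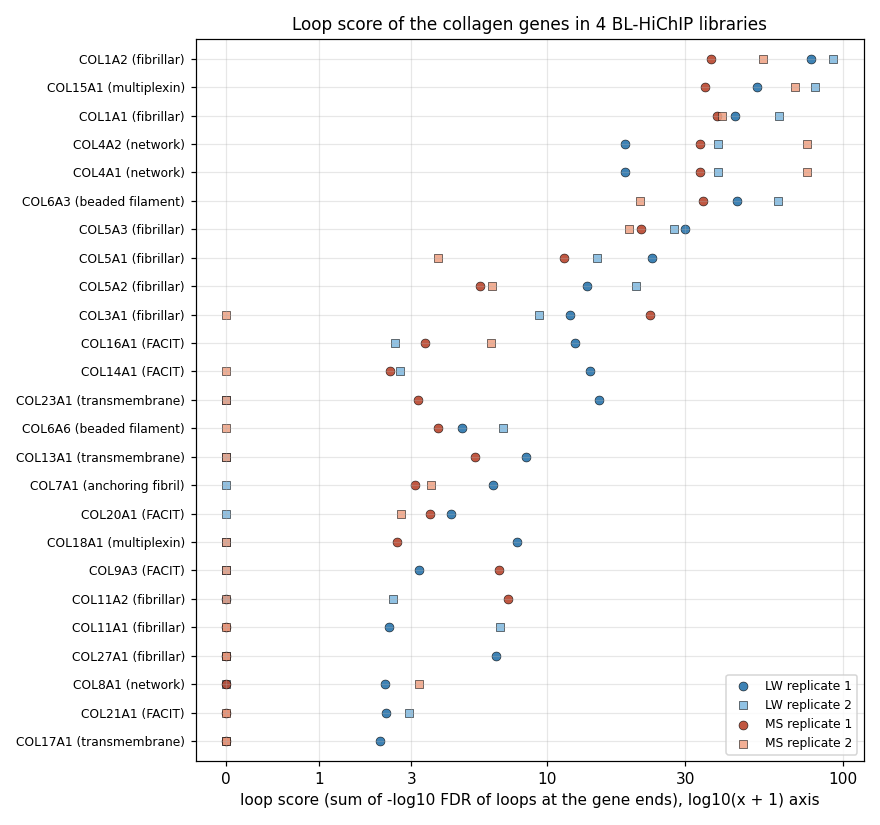
Loop score of the 25 collagen genes with a loop in any library, with 1 point for each of the 4 BL-HiChIP libraries, on a log10(x + 1) axis and ordered by the mean score. COL1A2 leads, with LW at 78.2 and 92.7 and MS at 36.5 and 54.4, and most genes below COL5A2 have a score of 0 in at least 1 library.

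COL1A2 (chromosome 9, 74174484 to 74210407), the α2 chain of type I collagen, had the highest mean score. It scored 78.2 and 92.7 in LW against 36.5 and 54.4 in MS. Both LW libraries stood above both MS libraries, and the log2 difference of LW over MS was 0.73 ± 0.76 (SE) after quantile normalization, with an adjusted p of 0.992 in the limma fit across all genes. Of its 6 loops, those to far anchors 20 kb and 90 kb upstream of the transcription start were called in all 4 libraries. The 90-kb loop had −log10 FDR values of 36.0 and 41.3 in LW against 25.6 and 20.1 in MS, and the 20-kb loop 30.3 and 44.7 in LW against 7.87 and 25.7 in MS. No protein-coding gene of the table overlapped either far anchor.

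COL1A1 (chromosome 12, 26379087 to 26397180), the α1 chain that pairs with COL1A2 in the type I fibril, scored 44.0 and 61.4 in LW against 38.3 and 39.8 in MS. Its LW libraries were also above its MS libraries, but not after normalization, and the log2 difference was 0.13 ± 0.76 (SE). The loops 10 kb and 60 kb upstream of its start were called in every library, and the 60-kb loop was the stronger one, at 28.6 and 26.7 in LW against 15.3 and 22.0 in MS. These anchors held no protein-coding gene. Downstream, past the other end of the gene, LW replicates 1 and 2 each had a loop of their own, at 30 kb and 35 kb, to anchors in SGCA, the gene of the muscle membrane protein α-sarcoglycan. MS replicate 2 had a 25-kb loop on that side, at 2.00, to the bin beside the 30-kb anchor. The annotated SGCA RNA reaches into this bin.

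Both type I genes therefore had a pair of upstream contacts in all 4 libraries. GRID-seq gives the strand of 5 collagen genes with loops, and in these the loops were almost all at the transcription start. This held for 8 of 8 for COL1A1, 6 of 6 for COL1A2, the same 12 of 12 for COL4A1 and COL4A2, and 7 of 8 for COL3A1. Each loop was called from an H3K27ac peak, a mark of active promoters, and these genes were ones with a listed RNA. How far the method set the place of the loops was not tested. For the other genes the table gives no strand.

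The chains of type V collagen, which regulate the diameter of type I fibrils, had lower scores. COL5A3 (chromosome 2, 68828197 to 68869914) scored 30.0 and 27.6 in LW against 21.3 and 19.3 in MS, and its 20-kb loop to LOC100517145 was called in all 4 libraries. COL5A1 scored 23.3 and 15.0 in LW against 11.5 and 3.87 in MS, and COL5A2 scored 13.8 and 20.4 in LW against 5.69 and 6.33 in MS. In all of these genes both LW libraries lay above both MS libraries. The log2 differences were 0.20 ± 0.75, 0.93 ± 0.80 and 0.95 ± 0.79 (SE), each with a limma adjusted p of at least 0.992.

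COL3A1 and COL5A2, the chains of type III and type V collagen that lie side by side on chromosome 15, were joined by 3 loops, each called in 1 library. They were a 95-kb loop from the COL3A1 start into COL5A2 in LW replicate 1, a 370-kb loop from the other end of COL3A1 in MS replicate 1, and a 420-kb loop from COL5A2 into COL3A1 in LW replicate 2. COL3A1 scored 12.1 and 9.36 in LW against 22.8 and 0 in MS, so the breeds overlapped. COL5A2 also had a 180-kb loop to SLC40A1, the iron exporter ferroportin, in LW replicate 2 and both MS libraries, and LW replicate 1 had a 175-kb loop into the same gene.

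COL4A1 and COL4A2 (chromosome 11, 76858332 to 76997409 and 76996885 to 77161617), which encode the type IV chains found in most basement membranes, share a start region that falls into a single 5-kb anchor, and every loop of one is a loop of the other. The score of both was 18.7 and 38.7 in LW against 33.7 and 76.1 in MS. MS replicate 2 was the highest, and the raw scores of the breeds overlapped. After quantile normalization the MS libraries stood above the LW libraries, and the log2 difference was −1.15 ± 0.85 (SE) with an adjusted p of 0.992 in limma. Of the 12 loops, 6 ended inside COL4A1 and 6 inside COL4A2. The 5-kb loop was called in all 4 libraries, at 5.51 and 7.81 in LW against 5.54 and 11.5 in MS.

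The other type IV chains also lie in neighbouring pairs. COL4A3 and COL4A4 on chromosome 15, and COL4A5 and COL4A6 on the X chromosome, had no loop at an end in any library.

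COL15A1 (chromosome 1, 240718128 to 240829188), a multiplexin of the basement membrane zone of muscle and vessels, scored 51.9 and 80.7 in LW against 34.8 and 69.3 in MS. The scores of the breeds overlapped, with replicate 2 above replicate 1 in each, and the log2 difference was 0.19 ± 0.78 (SE). The loops at 25 kb and 70 kb from its lower-coordinate end were called in every library, the first at 26.0 and 30.0 in LW against 16.5 and 27.4 in MS. A 25-kb loop from its other end reached TGFBR1, a receptor of transforming growth factor β, in LW replicate 2 and both MS libraries, and LW replicate 1 had a 30-kb loop into the same gene.

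COL6A3 (chromosome 15, 137011549 to 137103687), the largest chain of type VI collagen, had more loops than any other collagen gene, 27 over the 4 libraries. Its score was 44.7 and 61.1 in LW against 34.3 and 21.1 in MS, with both LW libraries above both MS libraries and a log2 difference of 0.61 ± 0.78 (SE). No single loop was called in all 4 libraries: 21 were called in 1 library, 5 in 2 and 1 in 3. Many of these loops ended in neighbouring bins. A stretch of 40 kb at 136870001 to 136910000, which was picked out after its values were seen, took, from the higher-coordinate end of the gene, 3 and 1 loops in LW against 3 and 1 in MS, with summed −log10 FDR of 19.2 and 13.4 in LW against 17.2 and 3.39 in MS. MS replicate 1 had 1 more loop into this stretch, from the other end of the gene, at 130 kb and 2.91.

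The remaining genes with loops had lower mean scores. COL16A1, a FACIT, had some loop in each library but no single loop called in more than 3, with scores of 12.6 and 2.53 in LW against 3.42 and 6.25 in MS, and COL14A1, a FACIT of the perimysium also known as undulin, scored 14.2 and 2.67 in LW against 2.41 and 0 in MS. The breeds overlapped for COL16A1, and for COL14A1 the lower LW value was close to the higher MS value. COL27A1 and COL17A1 had loops at an end in LW replicate 1 alone.

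**Figure D2:**
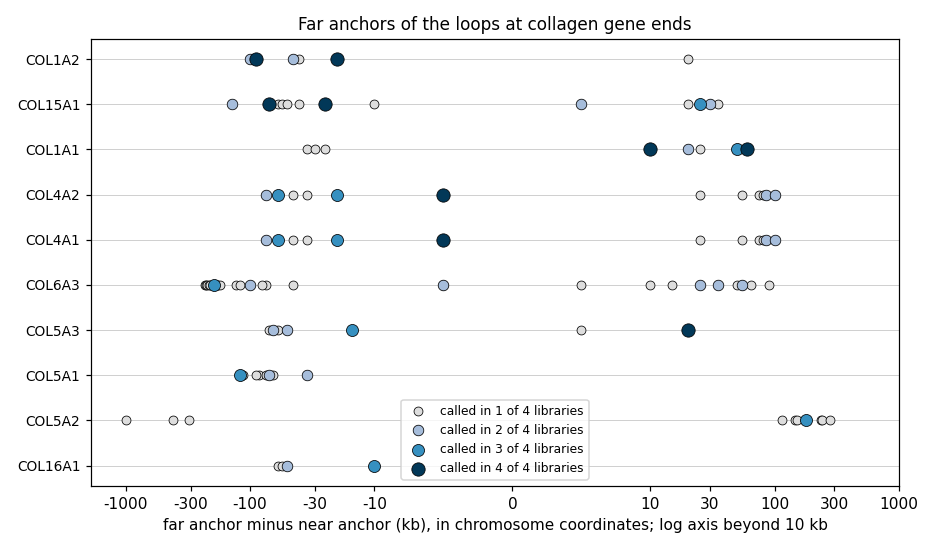
Far anchors of the loops of the 10 collagen genes with some loop in each of the 4 libraries, as the distance in kb from the near anchor in chromosome coordinates (log axis beyond 10 kb), with darker and larger points for loops called in more libraries. COL1A1, COL1A2 and COL15A1 each have 2 loops called in all 4 libraries, whereas the 27 loops of COL6A3 were each called in 3 libraries or fewer.

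Over all collagen genes there were 141 different loops, with a median span of 60.0 kb, and the loops at the ends of protein-coding genes had the same median. Of the 141 loops, 8 (5.67%) were called in all 4 libraries and 97 (68.8%) in 1 only, against 4.73% and 65.4% of the loops at protein-coding genes. By breed, 39 loops were shared, 62 stood in LW lists alone and 40 in MS lists alone. Thus 38.6% of LW loops and 49.4% of MS loops had a match in the other breed when both anchors had to be identical, and 61.4% and 81.0% when each anchor could lie 1 bin away, a tolerance chosen after the data were seen. For all loops these shares were 34.7% and 44.2% with exact anchors and 58.7% and 72.8% with the tolerance. Collagen loops made up 0.107% and 0.122% of the loops in LW against 0.115% and 0.132% in MS.

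The breeds were compared with limma on the log2 of the quantile-normalized score plus 1, across the 15431 genes with a loop in any library. None of the 25 collagen genes passed the threshold (log2 difference above 1.5 and unadjusted p under 0.05), where 2.83% of all genes did so in favour of LW and 2.50% in favour of MS. None had an unadjusted p under 0.05 either, and no gene in the whole table had an adjusted p under 0.05 in limma or DESeq2, although 822 had an unadjusted p under 0.05 in limma and 275 in DESeq2. The median log2 difference of the 25 genes was 0.19, against 0.02 over all genes tested. On the scores as summed, 10 collagen genes had both LW libraries above both MS libraries and 0 the reverse, against 21.1% and 7.02% of all genes tested. On the normalized scores the libraries of the breeds did not overlap for 8 collagen genes with LW above MS and 3 with MS above LW, against 14.3% and 16.8% of all genes tested. The 8 were COL1A2, COL5A1, COL5A2, COL5A3, COL11A1, COL6A3, COL14A1 and COL21A1, and the 3 were COL4A1, COL4A2 and COL20A1, of which the first pair shares its loops. For COL11A1 and COL21A1 the separation lay at the floor. Their normalized values in LW replicate 1 were 0.596 and 0.579, and a score of 0 in MS replicate 2 became 0.520. With 2 libraries per breed a single gene cannot reach an exact permutation p below 0.333.

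Left-out libraries moved these results for few genes. Without LW replicate 1 the log2 difference was 2.86 for COL11A1, 1.91 for COL21A1 and −2.13 for COL20A1. Without MS replicate 1 it was 2.59 for COL3A1.

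Markers of cells of the muscle are given beside these scores, and none had an adjusted p under 0.05 in limma. The myofibre markers had a summed loop score of 672 and 1551 in LW against 711 and 1141 in MS. The adipocyte markers summed to 9.06 and 14.1 in LW against 7.56 and 6.14 in MS, and the satellite cell markers to 60.4 and 37.3 against 33.6 and 4.34. The 8 markers of fibroblasts and mesenchymal progenitors had a summed loop score of 99.5 and 133 in LW against 26.5 and 31.2 in MS, and 5 of them had both LW libraries above both MS libraries, as did 21.1% of all genes tested. DPT, the gene of dermatopontin, passed the threshold in favour of LW, at 22.8 and 44.6 in LW against 2.17 and 0 in MS, while LUM, PDGFRA and TCF21 had no loop in MS and TCF21 had none in LW either. The 5 endothelial markers summed to 53.1 and 69.8 in LW against 83.7 and 161 in MS. Of these, 1 had both MS libraries above both LW libraries, against 7.02% of all genes tested. VWF had no loop in LW, and in MS it was at 0 in replicate 1 and at 8.81 in replicate 2. PAX7, the satellite cell factor, was at 18.5 and 14.6 in LW and at 0 in both MS libraries. It and DPT were the 2 of 28 cell type markers tested that passed the threshold in favour of LW, with 0 in favour of MS. Of all genes tested, 2.83% passed in favour of LW and 2.50% in favour of MS. The part of these markers in the collagen scores was not tested.

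GRID-seq reads which RNAs lie on which DNA. The RNA-chromatin signal of a gene is the deposited, background-corrected signal summed over all RNAs and over the 1-kb bins within 5 kb of either gene end. The window is alike for genes whose end windows do not overlap, and it is smaller for shorter genes. The share of such shorter genes among the protein-coding genes was not counted. The 4 highest mean signals came mostly from an RNA of the gene itself, and a further group of collagen genes carried the RNA of a neighbour. In all, 40 of the 42 genes had some signal in at least 1 library, all but COL24A1 and COL4A6, and 16 (38.1%) had signal in all 4, against 25.3% of the protein-coding genes. A signal above 100 was found at 14 and 15 collagen genes in LW (33.3% and 35.7%) and at 4 and 15 in MS (9.52% and 35.7%), against 15.1%, 20.9%, 12.2% and 17.2% of the protein-coding genes in the same order of libraries. MS replicate 1, whose list lacked the most RNAs, was the low one.

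**Figure D3:**
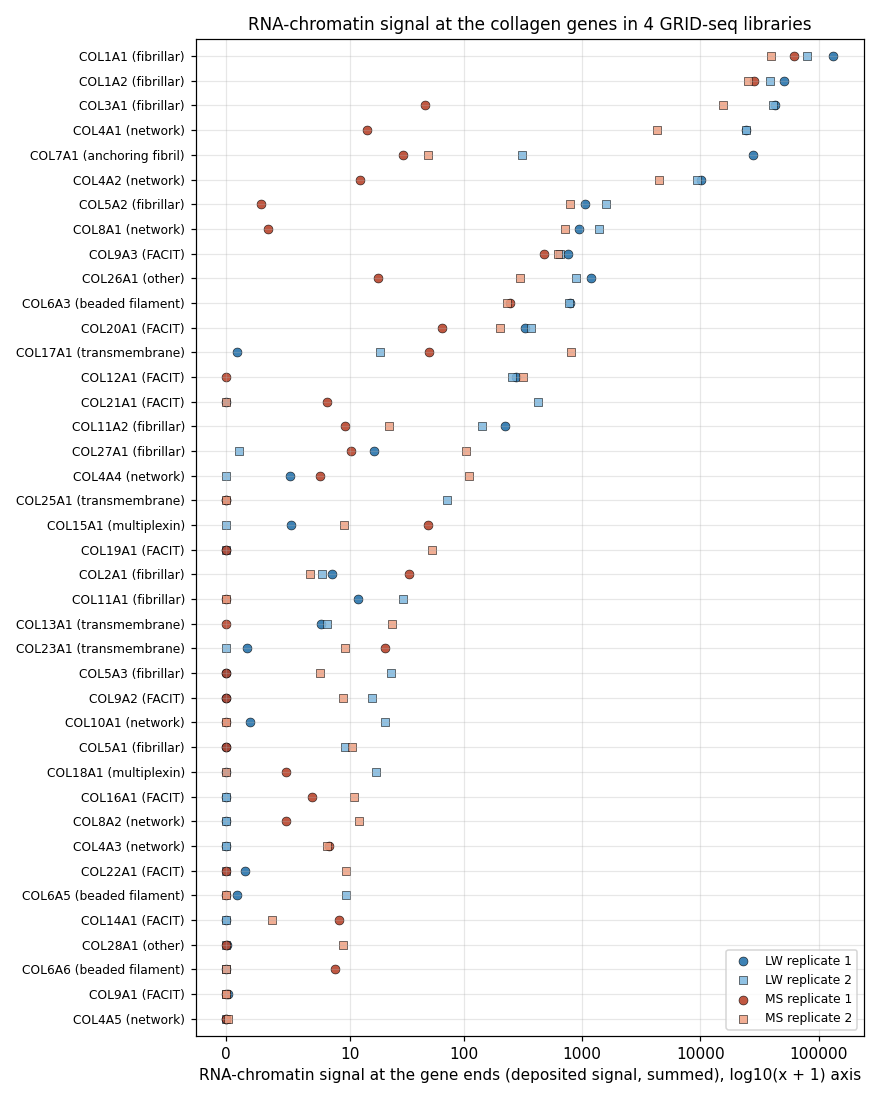
RNA-chromatin signal at the ends of the 40 collagen genes with any signal, with 1 point for each of the 4 GRID-seq libraries, on a log10(x + 1) axis and ordered by the mean. COL1A1 and COL1A2 are high in all 4 libraries, while COL3A1, COL4A1 and COL4A2 are high in LW and in MS replicate 2 and fall below 50 in MS replicate 1.

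The fibrillar chains led. COL1A1 had a signal of 131573 and 78566 in LW against 61843 and 39555 in MS, and COL1A2 had 50980 and 38371 in LW against 28190 and 25045 in MS. For both genes the LW libraries lay above the MS libraries, with log2 differences of 1.02 ± 0.90 and 0.70 ± 0.85 (SE). COL3A1 had 42193 and 40588 in LW, 46.3 in MS replicate 1 and 15626 in MS replicate 2. COL3A1 RNA is not listed in MS replicate 1, and the log2 difference of 4.90 ± 2.67 (SE) did not pass the threshold.

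Of the type IV pair, COL4A1 had 24262 and 24159 in LW, 14.3 in MS replicate 1 and 4301 in MS replicate 2, and COL4A2 had 10173 and 9444 in LW against 12.6 and 4437 in MS. Neither passed the threshold, with log2 differences of 6.62 ± 2.90 and 5.42 ± 3.01 (SE). The other type IV chains had little signal: COL4A3 was at 0 in both LW libraries and at 6.36 and 6.07 in MS, COL4A4 was at 2.46 and 0 in LW against 5.24 and 111 in MS, and COL4A5 had 0.0273 in MS replicate 2 and 0 elsewhere.

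COL7A1, the anchoring fibril collagen, owed its 27797 in LW replicate 1 to the RNA of UQCRC1, a gene 3.34 kb away that encodes a subunit of respiratory complex III. This RNA was not listed on COL7A1 in the other libraries, where the signal was 312 in LW replicate 2 and 30.2 and 49.2 in MS.

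The source of the signal ran with its height. For the 15 collagen genes with a mean signal above 100, the RNA that gave most of it overlapped the gene in 6 cases, and in the other 9 came from a gene on the same chromosome under 1 Mb away. In that last group, COL7A1, COL17A1 and COL21A1 had the RNA in 1 library each. For the 17 genes where the RNA of the largest share came from another chromosome, the mean signal was at most 15.1. That share was not always a majority, and at COL15A1 it was 41.4%. The 6 genes with an overlapping RNA were COL1A1, COL1A2, COL3A1, COL4A1, COL4A2 and COL5A2, the last because the annotated COL3A1 RNA runs over its lower-coordinate end.

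Among the genes with a neighbour's RNA, COL6A3 carried the RNA of LRRFIP1, 179.6 kb away, in every library, at 768 and 599 in LW against 248 and 233 in MS. Its whole signal was 788 and 784 in LW against 248 and 233 in MS, and the log2 difference was 0.98 ± 1.07 (SE). COL12A1 carried the RNA of FILIP1, a filamin-interacting protein gene 105.8 kb away, at 264 and 258 in LW and 297 in MS replicate 2, and it had no signal at all in MS replicate 1. COL26A1 carried CUX1 RNA, COL8A1 carried FILIP1L RNA and the RNA ENSSSCG00000049101, and COL9A3 and COL20A1 both carried ENSSSCG00000050060, from 140.9 kb and 462 kb away. COL1A1 also held the RNA of its neighbour SGCA in all 4 libraries, at 3404 and 1798 in LW against 1847 and 2156 in MS.

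RNAs found on many collagen genes were not collagen RNAs. ENSSSCG00000048037 lay on 25 of the 42 genes (59.5%), TTN RNA on 18 (42.9%), ENSSSCG00000044834 on 13 (31.0%) and ENSSSCG00000048856 on 7 (16.7%). The same RNAs lay on 55.4%, 50.6%, 28.3% and 23.8% of all protein-coding genes. Their median signal on a collagen gene was between 5.23 and 13.4.

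Across the 23749 genes with signal, 7.46% passed the threshold (log2 difference above 2 and unadjusted p under 0.05) in favour of LW and 8.22% in favour of MS. Of the 40 collagen genes tested, 4 did so in favour of LW and 2 in favour of MS. COL11A1 had 12.04 and 29.9 in LW and 0 in both MS libraries, COL10A1 0.576 and 20.7 against 0, and COL6A5 0.239 and 9.30 against 0. These 3 genes owe their whole signal to 1 RNA each, ENSSSCG00000044834 for COL11A1 and COL6A5, and TRDN, a calcium-release protein gene of muscle 42200 kb away, for COL10A1. COL11A2, the α2 chain of type XI collagen, had 224.5 and 143 in LW against 8.98 and 22.6 in MS. The RNA of MLIP gave all of the signal in LW replicate 1 and most of it in MS replicate 2, but in LW replicate 2 129 came from the RNA of KLHL31.

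In favour of MS, COL16A1 had 0 in both LW libraries and 4.27 and 10.99 in MS, from RNAs of other chromosomes. COL17A1, a collagen of epithelial hemidesmosomes, had 0.233 and 18.9 in LW against 50.7 and 806 in MS, and 805 of the last came from the RNA of SH3PXD2A, which was not listed on it elsewhere. The log2 differences of the 6 genes were 4.39 ± 0.84 for COL11A1, 3.45 ± 1.18 for COL11A2, 3.41 ± 0.99 for COL10A1, 2.82 ± 0.87 for COL6A5, −2.75 ± 0.85 for COL16A1 and −4.98 ± 1.28 for COL17A1 (SE). Their adjusted p-values in limma were between 0.186 and 0.311. No gene in the whole table had an adjusted p under 0.05, and 3723 had an unadjusted p under 0.05. COL11A1 stayed past the threshold in all 11 alternatives, whereas COL17A1 lost the call without any 1 of the 4 libraries, COL11A2 without LW replicate 1, MS replicate 1 or MS replicate 2, COL10A1 without either MS library, and COL6A5 without MS replicate 2. With bins within 1 kb of the gene ends the log2 difference was 1.13 for COL10A1, 0.86 for COL6A5 and −1.17 for COL16A1, none past the threshold. COL10A1, COL6A5 and COL17A1 also lost the call without normalization, COL16A1 and COL11A2 without TTN RNA, and COL11A2 with a pseudocount of 0.1 or with only genes that had signal in at least 2 libraries.

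Leaving out a library also brought other genes past the threshold. Such a fit leaves 1 library in a breed, so only log2 differences are given. Without MS replicate 2, the only MS library that lists COL3A1 RNA, they were 8.39 for COL3A1, 10.5 for COL4A1, 9.38 for COL4A2, 9.27 for COL5A2, 8.91 for COL8A1 and 7.75 for COL12A1. In favour of MS they were −2.62 for COL4A3, −2.79 for COL6A6 and −2.93 for COL14A1. Without MS replicate 1 they were 2.76 for COL4A1, −3.20 for COL8A2 and −5.97 for COL19A1. The difference was 5.57 for COL25A1 without LW replicate 1, and 9.49 for COL7A1 and 2.23 for COL9A1 without LW replicate 2.

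The median log2 difference of the 40 collagen genes was 0.80, against −0.07 over all genes tested. Before normalization the libraries of the breeds did not overlap for 16 collagen genes with LW above MS and 8 with MS above LW, against 16.4% and 20.4% of all genes tested. On the normalized signal this held for 13 collagen genes with LW above MS and 5 with MS above LW, against 16.0% and 19.6% of all genes tested. The genes in these counts are not all independent. COL4A1 and COL4A2 share ENSSSCG00000044051, COL3A1 and COL5A2 share COL3A1 RNA, and COL9A3 and COL20A1 share ENSSSCG00000050060. At COL3A1, COL4A1, COL4A2, COL5A2, COL8A1 and COL26A1, all with LW above MS, the RNA of the largest share was not listed on the gene in MS replicate 1. Of 30 cell type markers tested, 5 passed the threshold in favour of LW (MYLPF, TCF21, PDGFRB, TEK and CDH15) and 2 in favour of MS (FBN1 and KDR), where 7.46% and 8.22% of all genes did. The fibroblast markers had a summed signal of 4416 and 7604 in LW against 2732 and 5473 in MS, and their part in the collagen signal was not tested.

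Only chains of types I, III and IV were themselves listed as chromatin RNAs. COL1A1 RNA had 3065 and 3062 reads in LW against 3638 and 4116 in MS, and COL1A2 RNA had 2646 and 2731 in LW against 2980 and 3594 in MS. COL3A1 RNA had 4616 and 4939 in LW and 6320 in MS replicate 2 and was not listed in MS replicate 1. Per kb of the annotated RNA, COL1A1 was the densest, at 171 and 171 reads in LW against 203 and 230 in MS, above COL3A1 at 78.4 and 83.8 in LW and 107 in MS replicate 2 and COL1A2 at 72.6 and 74.9 in LW against 81.7 and 98.6 in MS.

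COL4A2 RNA was listed in LW alone, with 12101 and 13996 reads or 73.7 and 85.3 reads per kb. Another pair of annotated RNAs covers COL4A1 on its strand. ENSSSCG00000044700, named COL4A1 in the gene name table, had 2815 and 3066 reads in LW and was not listed in MS, and ENSSSCG00000044051, which has no symbol there and reaches to the COL4A1 start, had 11854 and 13280 reads in LW, 7468 in MS replicate 2 and no entry in MS replicate 1. An RNA missing from a list is not shown to be absent. The sparsest RNAs listed in MS had 38.7 and 37.7 reads per kb, and COL3A1 RNA, at 107 in MS replicate 2, was not listed in MS replicate 1. Of the 429 named RNAs listed in both LW libraries, 67 (15.6%) were in neither MS list and 52 (12.1%) were missing from MS replicate 1 only.

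**Figure D4:**
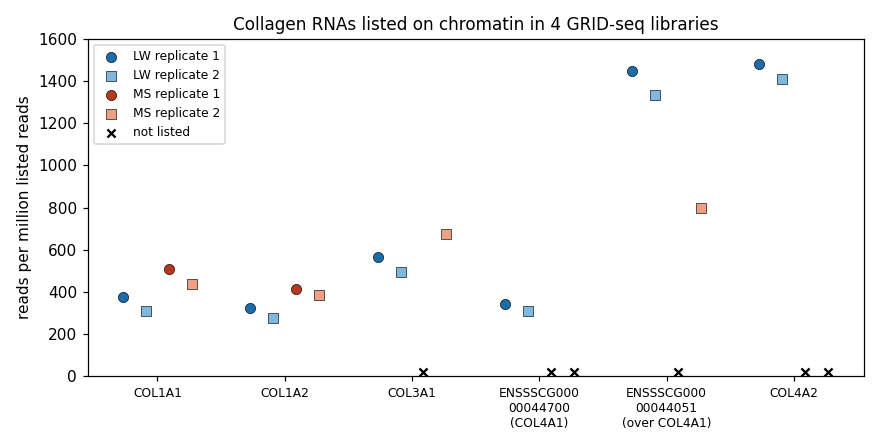
Reads of the 6 collagen RNAs as CPM of the listed reads of the library, with 1 point for each of the 4 GRID-seq libraries and a cross where a library does not list the RNA. COL1A1 and COL1A2 are in all 4 lists, whereas COL4A2 and ENSSSCG00000044700 are in the LW lists only.

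For the RNAs in all 4 lists the reads were compared with the quasi-likelihood test of edgeR. Here 44.3% of the 307 RNAs passed an adjusted p of 0.05 in favour of LW and 42.7% in favour of MS, so that a call is the usual outcome in this table. Both type I chains were higher in MS. As CPM, the counts scaled to the size of the library by TMM, COL1A1 had 444 and 402 in LW against 614 and 584 in MS, a log2 difference of −0.50 ± 0.059 (SE) with an edgeR adjusted p of 0.00127. COL1A2 had 383.5 and 359 CPM in LW against 503 and 510 in MS, a log2 difference of −0.45 ± 0.039 (SE) with an edgeR adjusted p of 0.000445. The libraries of the breeds did not overlap for either RNA, as for 46.6% of the RNAs in each direction.

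The reads and the signal of these RNAs thus ran in opposite directions. Summed over all its bins, COL1A1 RNA had a signal of 205804 and 121503 in LW against 99351 and 60443 in MS, and COL1A2 RNA had 159615 and 111929 in LW against 79639 and 64408 in MS, with LW above MS. In every library an RNA's smallest listed signal was lower where its reads were higher, with r between −0.99 and −0.98 on the log scale. This is across the 519 to 681 RNAs of a list, which are not independent replicates. How the signal is scaled to the reads of an RNA was not tested, and the signal was not read as a number of reads.

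The RNAs of the fibrillar chains stayed at their own genes. For COL1A1, COL1A2 and COL3A1 between 99.89% and all of the signal lay within 10 kb of the RNA's own gene in each library that lists them. The farthest bin on the same chromosome was 7.91 to 16.0 kb away, and no bin was on another chromosome. COL4A2 RNA spread more widely, with 72.0% and 69.2% of its signal within 10 kb in the LW libraries and 28.03% and 30.6% farther out on the same chromosome. ENSSSCG00000044051 likewise had 76.8% and 69.6% within 10 kb in LW and 77.3% in MS replicate 2, whereas ENSSSCG00000044700, the other RNA over COL4A1, had 99.7% and 93.9% within 10 kb in LW. The RNAs that spread more were also those with more reads. COL4A2 RNA and ENSSSCG00000044051 had 7468 to 13996 reads where listed, and the other collagen RNAs had 2646 to 6320. An RNA with more reads also had a lower smallest listed signal. The part of the reads in the spread was not tested.

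The highest bin of 4 of the 6 collagen RNAs lay well downstream of the start in every library that lists them. It was 11.5 to 13.5 kb from the start of the 17.9-kb COL1A1 RNA, 30.6 to 31.6 kb from that of the 36.5-kb COL1A2 RNA, 34.6 to 37.6 kb from that of the 58.9-kb COL3A1 RNA and 157 to 161 kb from that of the 164.1-kb COL4A2 RNA. For COL3A1 this lies near the end of the shorter RefSeq gene, and the signal fell from there on, ahead of the end of the annotated RNA. For the other two, the place of the highest bin differed between libraries: 15.9 kb from the start in LW replicate 1 and 60.9 kb in LW replicate 2 and MS replicate 2 for the 102.5-kb ENSSSCG00000044051, and 9.35 kb in LW replicate 1 and 28.4 kb in LW replicate 2 for the 30.6-kb ENSSSCG00000044700.

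**Figure D5:**
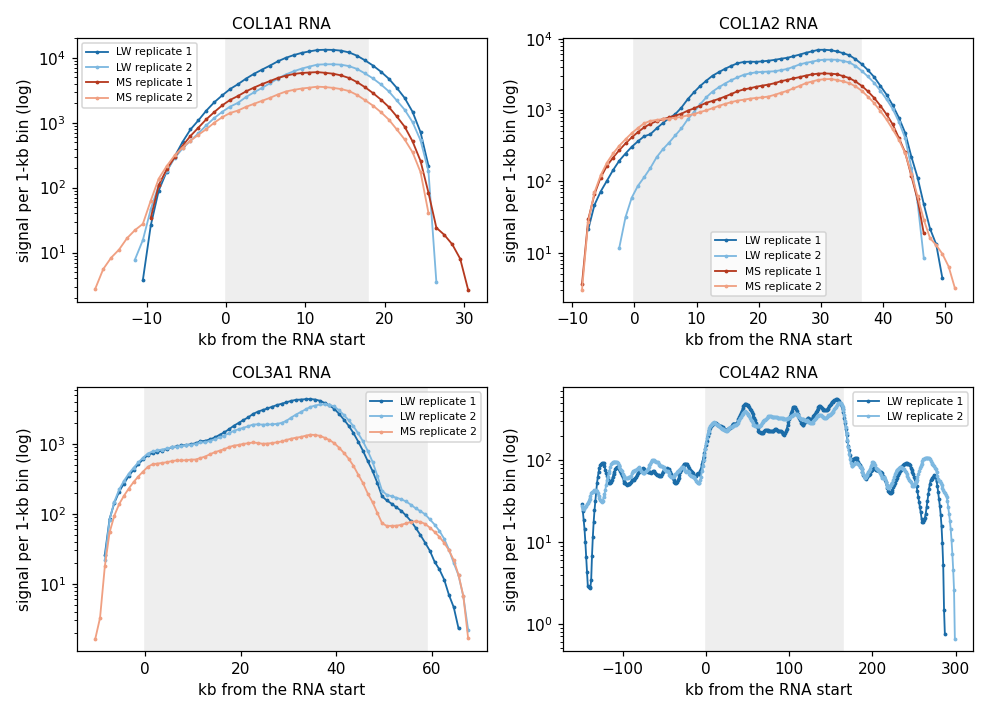
Signal of 4 collagen RNAs per 1-kb bin of DNA (log axis) against the distance in kb from the start of the RNA, with 1 line for each GRID-seq library that lists the RNA and the annotated RNA shaded. The signal of COL1A1, COL1A2 and COL3A1 RNA peaks in the downstream part of the RNA and ends within 16.0 kb of it, and that of COL4A2 RNA goes on at a lower level on both sides.

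Loops and RNAs were set side by side at the far anchors. COL1A2 RNA had no listed signal at the far anchors 20 kb and 90 kb upstream that all 4 BL-HiChIP libraries called, and COL1A1 RNA had none at the 60-kb anchor. At the 10-kb anchor COL1A1 RNA had 120.3 and 179 in LW against 143.5 and 267 in MS. COL4A2 RNA had between 276 and 1928 in both LW libraries at all 12 far anchors of the COL4A1 and COL4A2 start, which lie within 100 kb. In LW, COL4A2 RNA had 12101 and 13996 reads, against 2646 and 2731 for COL1A2 RNA. The part of the reads in this contrast was not tested.

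Genes that process, bind or degrade collagen were counted from 4 lists. In the loop comparison 44 of these genes had a score, and P3H1, a prolyl 3-hydroxylase of collagen, passed the threshold in favour of LW with 8.73 and 9.07 in LW and 0 in both MS libraries. This was 1 of the 27 processing enzymes and chaperones tested, and none of the 7 receptors, 7 collagen-binding matrix proteins and 3 proteases tested passed. Of all genes tested, 2.83% passed in favour of LW and 2.50% in favour of MS. In the RNA-chromatin comparison 6 of 55 genes passed in favour of LW and 7 in favour of MS, where 7.46% and 8.22% of all genes did. The processing enzymes and chaperones gave 3 and 4 of 31, the receptors 0 and 2 of 9, the proteases 3 and 1 of 7 and the collagen-binding proteins none of 8.

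Among these were PLOD2, a lysyl hydroxylase that sets the cross-links of collagen, with 133.9 and 127 in LW against 5.39 and 0 in MS, and MMP14, a membrane-bound collagenase, with 130.1 and 135 in LW against 0 and 5.42 in MS. MRC2, an endocytic collagen receptor, went the other way, with 0.453 and 3.32 in LW against 60.3 and 94.1 in MS. None of the list genes had an adjusted p under 0.05 in limma, in either comparison. Of the list RNAs, SPARC, a collagen-binding glycoprotein, was the only one in all 4 lists, and its reads were higher in LW, at 594 and 592 CPM against 494 and 504 in MS, with a log2 difference of 0.25 ± 0.023 (SE) and an edgeR adjusted p of 0.000548.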

How the data were processed

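The samples were 4 BL-HiChIP and 4 GRID-seq libraries, grouped by breed and replicate from the labels. The authors trimmed the linker of BL-HiChIP reads with ChIA-PET2, mapped them with BWA-MEM, removed duplicates with Pairtools, and used FitHiChIP per library to find loops from H3K27ac peaks to any 5-kb bin, up to 2 Mb. The value deposited per loop was read as an adjusted p-value (FDR), since the lists end under 0.01, and the zeros in the lists were set to the smallest other FDR of any list. For GRID-seq the authors mapped both read ends with Bowtie2. The deposited lists hold a whole number per RNA, read as its count of reads, and per RNA and 1-kb bin a background-corrected signal. The lists carry no column names, so these units were inferred from the numbers. Gene positions, without strand, came from RefSeq for Sscrofa11.1.

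Loop scores and RNA-chromatin signals per gene were quantile-normalized and compared over all genes with limma 3.58.1 on log2(value + 1). The added 1 shrinks changes of low genes, but the normalization could enlarge them. In LW replicate 1 it raised the signal of COL6A5 from 0.239 to 4.73 and that of COL10A1 from 0.576 to 5.55. The MS values of both genes stayed at 0. Reads were compared with the edgeR 4.0.16 quasi-likelihood test and TMM, over RNAs listed in all 4 libraries. Both use Benjamini-Hochberg adjustment. DESeq2 1.42.0 was run on the rounded scores and on the reads as an alternative. The tests were tested on simulated data. Replicates differed beyond sampling noise: chi-square of the reads divided by its degrees of freedom was 47.3 between the LW libraries and 58.8 between the MS libraries. Depth limits what a list can hold, and the loops and reads per library are given with the results.

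The members and the gene lists were chosen with earlier results of these data known. Collagen genes were named if they had some loop in each of the 4 libraries (up to the 12 of highest score), passed a threshold, lay beside another chain, were listed as RNA or ranked among the 5 highest signals, together with COL6A3 and COL12A1, and other genes if they were among the 5 RNAs on most members (1 of which is not reported here), had an end on the far anchor of a loop called in all 4 libraries or passed a threshold. Other genes named were chosen after their values were seen. The table gives no sequence, so none is printed.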

Additional observations from a re-analysis of the deposited data

How the results depend on the processing

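With 2 libraries per breed the fits have few degrees of freedom, the lists stop at a minimum that differs between libraries, and a fit that leaves out 1 library assumes that the lone library of that breed varies like the other breed. Without quantile normalization the median log2 difference of loop scores over all genes moved from 0.02 to 0.38 in favour of LW. The number of collagen genes past the loop threshold, 0 in each direction, became 2 in favour of LW without normalization, and ranged from 0 to 2 for LW and from 0 to 1 for MS when libraries were left out. It was 0 under the other alternatives, DESeq2 included. The number past the RNA-chromatin threshold, 4 for LW and 2 for MS, became 2 for LW without normalization, 2 and 1 with bins within 1 kb, and 4 for MS with a pseudocount of 0.1. With libraries left out it ranged from 3 to 7 for LW and from 1 to 4 for MS. The replicate numbers are shared by the breeds but nothing says that they pair the libraries. With the replicate block the RNA-chromatin count became 1 and 1 (COL11A1 and COL17A1), and the loop count stayed at 0 and the read count at 2 for MS. The differences between replicates 1 and 2 of the breeds correlated across genes with r = 0.36 for loop scores, 0.00086 for RNA-chromatin signal and 0.94 for RNA reads. The direction and the call of COL1A1 and COL1A2 reads were the same in all 8 alternatives. Over all genes the loop calls ranged from 100 to 884 for LW and from 104 to 957 for MS, against 436 and 386, and the RNA-chromatin calls from 1181 to 3281 and from 1388 to 3086, against 1772 and 1951, with no adjusted call in any of them. The number of collagen genes with a loop, 25 in LW and 21 in MS, was 15 and 12 when both libraries of the breed had to call it and ranged from 16 to 24 in LW and from 13 to 20 in MS with 1 library left out. The number with an RNA, 33 in LW and 35 in MS, was 21 and 23 when both libraries had to list it. The 39 collagen loops called in both breeds became 62 of the LW loops and 64 of the MS loops with each anchor up to 1 bin away, an alternative chosen after seeing the data. The cause of these shifts was not tested.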

Other observations

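Loops with an anchor inside a collagen gene, but none within 1 kb of its ends, were not part of the scores above. They were found for 24 of the 42 genes, 6 of which had no loop at an end, and 11 genes had no loop of either kind. COL4A2 had the most, with 32 and 29 in LW against 39 and 26 in MS, and COL4A1 had 32 and 25 in LW against 34 and 20 in MS. The next were COL5A2, with 25 and 27 in LW against 16 and 9 in MS, and COL15A1, with 14 and 15 in LW against 10 and 6 in MS. COL5A2 was the gene with the most such loops in all 4 libraries, 4 of 49, while COL15A1 had 2 of 30 and COL4A1 and COL4A2 1 each. COL12A1, the tendon and muscle FACIT, had none, and COL8A2 and COL28A1, which had no loop at an end, had 7 each. Long genes offer more bins to an anchor, and these numbers were not scaled by length.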
